A study of Mus musculus with 9 samples.

Results

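The matrix metalloproteinases (MMPs) and their tissue inhibitors were followed as 10 genes: the proteases Mmp2, Mmp3, Mmp9, Mmp13, Mmp14, Mmp19 and Mmp23, and the inhibitors Timp1, Timp2 and Timp3. They were chosen by name from the gene list of the series and not by a rule on measured values. Earlier results of these data were known when they were chosen. They are 10 of its 54534 rows, of which 26367 had at least 1 unique molecular identifier (UMI, 1 count per captured mRNA molecule) in a kept cell.

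Single cells were isolated from mouse synovial joints by collagenase digestion, sorted alive and profiled with a 10x Genomics 5' kit in 9 libraries. All mice carried Gdf5-Cre;Tom;Pdgfrα-H2BGFP and were 11 to 12 weeks old. In this strain Gdf5-Cre labels descendants of Gdf5-expressing embryonic joint interzone cells with tdTomato, whatever those descendants later became, and the Pdgfrα promoter drives a nuclear green fluorescent protein. Tom+ cells (Gdf5-lineage) and Tom-GFP+ cells (Pdgfrα-expressing cells outside that lineage) were sorted from naive knees (steady state, 2 Tom+ libraries and 1 Tom-GFP+ library) and from right knees 6 days after joint surface injury (4 Tom+ and 2 Tom-GFP+ libraries). The injury was a medial parapatellar arthrotomy with a scratch through the full thickness of the trochlear cartilage. The naive knees had no surgery that the labels record, so opening the joint and scratching the cartilage cannot be told apart.

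Of 5161 cell barcodes 4788 were kept, and 4670 of these were stromal. Libraries held 2866464 to 15033902 UMIs, and the median kept cell had 8050 to 8647 UMIs in the steady-state Tom+ libraries against 12223 to 18567 in the injured ones. Levels are therefore given as CPM (UMIs of a gene divided by all UMIs, scaled to 1000000) over the cells of 1 class in 1 library, and shares of cells after thinning every cell to 4000 UMIs. An older gene list layout was used for all 3 naive libraries and for replicate 1 of the Tom+ injured ones, and a newer one for the other 5 injured libraries, so layout goes largely with injury. tdTomato stood at 329 to 747 CPM in the Tom+ libraries and at 2.8 to 7.6 CPM in the Tom-GFP+ ones, and 12 barcodes occurred in more than 1 library. In Tom-GFP+ injured replicate 2, 1 cell in 10 had over 82.3% mitochondrial UMIs before filtering.

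MMPs are zinc endopeptidases that cut extracellular matrix and many secreted or membrane proteins. Most are secreted as inactive precursors, whereas Mmp14 (MT1-MMP) sits in the membrane and, with Timp2 as its docking partner, activates the precursor of the gelatinase Mmp2. Mmp13 is the main collagenase of mouse cartilage and bone, and Mmp3 (stromelysin-1) degrades proteoglycans and activates other precursors. The inhibitors bind the active site of the enzymes. Timp3 is the one held in the matrix, and it also blocks the aggrecan-degrading enzymes of the ADAMTS family. In the joint these genes are known for cartilage breakdown in arthritis and for tissue remodelling after injury.

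Mmp13 (chromosome 9, 7272514 to 7283331, plus strand) and Mmp3 (chromosome 9, 7445822 to 7455975, plus strand) are neighbours in one cluster of protease genes in GRCm38, 162.5 kb apart, with the protein-coding genes Mmp12 and Mmp1b between them. Timp1 lies on chromosome X, 20870166 to 20874735, plus strand, inside Syn1 on the opposite strand. Timp3 lies on chromosome 10, 86300372 to 86349506, plus strand, inside Syn3 on the opposite strand. The counting strand is not given in the sources used here, so reads of such overlapping pairs cannot be told apart from these tables alone. RefSeq promoter windows on GRCm38.p6 were matched for 7 of the 10 members. A stretch of 130 bases before the start is shown for both neighbours, and for Timp1 and Timp3, the 2 inhibitors called after injury in sublining cells, 5′ to 3′ on the plus strand. The Timp3 stretch ends before the GENCODE start, which lies upstream of the RefSeq one. Capitals mark every match, on either strand, to 4 short motifs. The motif of the AP-1 factors was searched as TGANTCA, and that of the Runx factors as TGTGGT. The core promoter element known as the TATA box was searched with the letters TATAAA. The GC box, which binds factors of the Sp family, was searched with the letters GGGCGG.
Mmp13 (chr9:7272384-7272513): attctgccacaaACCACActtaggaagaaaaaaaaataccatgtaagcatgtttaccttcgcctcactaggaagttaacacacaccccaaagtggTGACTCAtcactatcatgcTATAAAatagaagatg
Mmp3 (chr9:7445692-7445821): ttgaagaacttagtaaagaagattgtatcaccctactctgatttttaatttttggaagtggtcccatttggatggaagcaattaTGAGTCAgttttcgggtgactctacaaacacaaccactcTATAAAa
Timp1 (chrX:20870036-20870165): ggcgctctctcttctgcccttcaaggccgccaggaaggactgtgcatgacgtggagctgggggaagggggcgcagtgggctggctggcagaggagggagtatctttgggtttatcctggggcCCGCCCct
Timp3 (chr10:86300242-86300371): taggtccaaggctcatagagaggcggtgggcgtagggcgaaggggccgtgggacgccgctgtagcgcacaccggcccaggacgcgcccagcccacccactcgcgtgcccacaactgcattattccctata
The Mmp13 and Mmp3 stretches each held an AP-1 match and a TATA box, with a Runx match on the minus strand of Mmp13, and 38.46% and 35.38% of their bases were G or C. The Timp1 stretch held a GC box. The Timp3 stretch held none of the 4 motifs, although its whole RefSeq window, which reaches further downstream, held GC boxes. Of the bases of the Timp1 and Timp3 stretches 65.38% and 66.15% were G or C. Of the 32851 longer promoter windows of 300 bases in the same table, 7.81% held the AP-1 letters, 13.6% the TATA box, 35.7% the GC box and 16.8% the Runx letters. A match describes these letters and not a bound factor.

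To see which synovial cells carried the transcripts, cells were placed in classes by fixed marker genes, none of which is an MMP or an inhibitor. Lining cells, the fibroblast-like synoviocytes (FLS-like, 684 cells), were gated on Prg4, which encodes lubricin, with Clic5, Tspan15, Htra4, Itga6 and Col22a1. Sublining fibroblast-like cells (2009 cells) were gated on Thy1, Cd34, Ly6a, Clec3b, Dpt and Pcolce2, and those with at least 4 of 6 markers of universal fibroblasts such as Pi16 and Dpp4 were set apart as universal fibroblast-like (747 cells). The remaining classes were activated (Lrrc15, Adam12, Tnc, Mdk, Cthrc1; 501 cells), osteoblast-like (124), mural-like (95), chondrocyte-like (78) and tenocyte-like (58), beside 105 immune and 13 endothelial cells. FLS-like cells had 40588 CPM of Prg4 and 1.69 CPM of Thy1, against 1853 and 197 CPM in the sublining gate. The leading genes of the sublining gate by fold (Igkv14-111, Cfd, Gm2564) held none of its markers among the top 10, and Mmp13 itself was among the leading genes of the activated gate, which holds cells of several kinds. The single steady-state Tom-GFP+ library had 1 FLS-like cell, so levels and tests of FLS-like cells in the steady state are from Tom+ libraries, while that cell enters the UMI shares pooled over all libraries. Adjusted p-values below are from edgeR's quasi-likelihood test on UMIs summed per library and class, with Benjamini-Hochberg adjustment over all genes tested and a false discovery rate of 0.05, and a log2 difference is given with its SE. The study's figure legends count as many mice as libraries in each group and describe the Tom-GFP+ mice as matched to Tom+ ones, without naming the pairs. Tests treat all libraries as independent samples unless a block is named.

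FLS-like cells held less of most MMP transcripts than sublining cells of the same libraries. Of the 9 members tested, 7 were lower in FLS-like cells and none was higher, where 36.8% of all genes tested were called. The 7 were Mmp2, Mmp3, Mmp13, Mmp14, Mmp19, Mmp23 and Timp2, and Mmp9 did not pass the filter on low counts. The median log2 difference of the members was -0.63, beside -0.03 over all genes tested.

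The widest gap was that of Mmp3. Its mean level was 17.9 ± 31.7 CPM (SD, n = 8 libraries) in FLS-like cells and 497 ± 410 CPM (n = 9) in sublining cells, a log2 difference of -5.17 ± 0.61 (adjusted p = 3.71e-09). The FLS-like levels were 0 and 94.4 CPM in the steady-state Tom+ libraries and 5.34, 8.19, 23.3 and 4.19 CPM in the injured Tom+ libraries, so 1 steady-state library stood far above the rest. At 4000 UMIs a cell, 2.8% of 678 FLS-like cells had an Mmp3 UMI, beside 25.8% of 2600 sublining cells (universal included) and 9.9% of 81 immune cells. Without thinning these shares were 8.9%, 35.6% and 12.4%. The FLS-like share was below that in immune cells, but some FLS-like cells held more than single UMIs. In the steady-state Tom+ libraries 8.62% of 58 FLS-like cells had an Mmp3 UMI without thinning, and they held 52 UMIs between them. Even among stromal cells Mmp3 was concentrated: the 5% of cells with the most Mmp3 UMIs held 64.3% of them in the steady state and 76.7% after injury.

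Mmp2, the gelatinase that fibroblasts secrete as a precursor, stood at 342 ± 77.9 CPM (n = 8) in FLS-like and 1124 ± 364 CPM (n = 9) in sublining cells, a difference of -1.85 ± 0.19 (adjusted p = 1.06e-10). Mmp14, its membrane-bound activator, stood at 219 ± 47.6 and 319 ± 154 CPM (-0.59 ± 0.22, adjusted p = 0.0289), and Timp2 at 734 ± 148 and 1072 ± 251 CPM (-0.68 ± 0.18, adjusted p = 0.00265). Mmp19, which cuts basement membrane proteins, differed by -0.63 ± 0.17 (adjusted p = 0.00334) and Mmp23, a membrane-anchored member of the family, by -0.50 ± 0.13 (adjusted p = 0.0018). Mmp2 and Mmp3 remained lower in FLS-like cells under all 20 alternatives, including the steady-state and the injured libraries taken alone. The call for Mmp14 was lost without Tom+ injured replicate 2, 3 or 4 (adjusted p = 0.0712, 0.0628 and 0.0634), without Tom-GFP+ injured replicate 1 or 2 (0.0509 and 0.0921), and in the steady-state libraries alone, where its difference was 0.09. Those steady-state libraries alone also gave no call for Mmp13, Mmp19 (-0.97, adjusted p = 0.177), Mmp23 (-0.22, 0.746) or Timp2 (-0.53, 0.154), so that of the 7 members Mmp2 and Mmp3 were the ones called in them.

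Timp1 and Timp3 did not differ between FLS-like and sublining cells over all libraries (Timp1, 0.65 ± 0.37, adjusted p = 0.175; Timp3, 0.57 ± 0.39, adjusted p = 0.275). That average joins opposite states. In the steady-state libraries alone Timp1 was higher in FLS-like cells by 2.47 (adjusted p = 0.00101) and Timp3 lower by -1.82 on the log2 scale (adjusted p = 0.0127), whereas in the injured libraries alone the Timp1 difference was -0.07 (adjusted p = 0.873) and Timp3 was higher in FLS-like cells by 1.24 (adjusted p = 0.00129). The steady-state values rest on 19 and 39 FLS-like cells in 2 libraries.

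**Figure D1:**
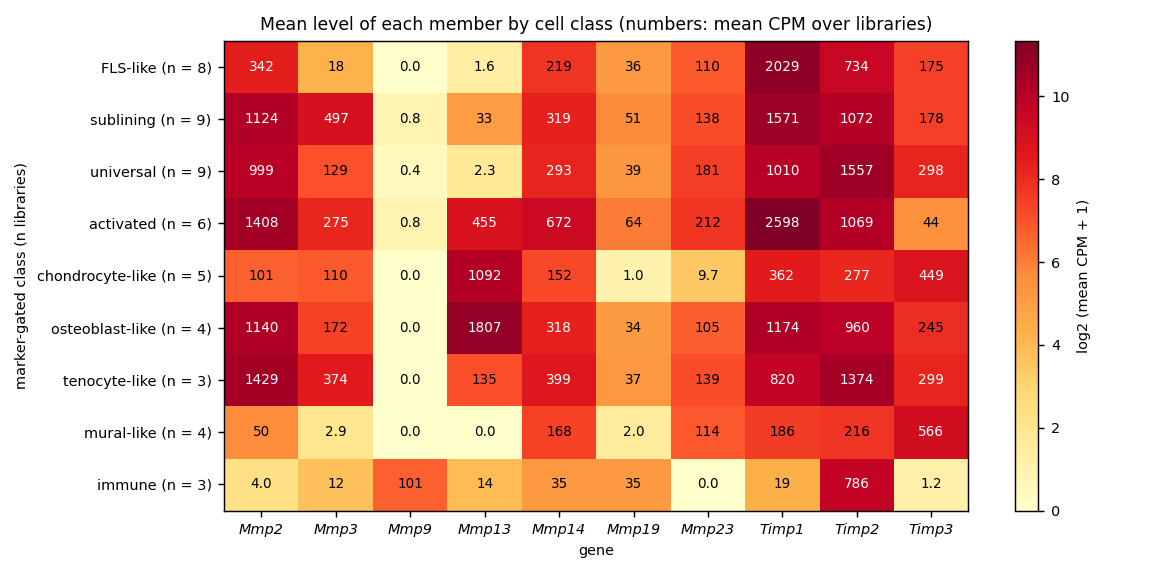
Mean level of each member (columns) in each marker-gated class (rows, with the number of libraries holding at least 10 cells); the colour is log2 of the mean CPM plus 1, the printed numbers are mean CPM, and colours are for comparing classes within a gene. Mmp3 is at 18 CPM in FLS-like and 497 CPM in sublining cells, Mmp13 is highest in osteoblast-like cells, and Mmp9 is seen in immune cells.

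Mmp13 was carried by few cells. Osteoblast-like cells held 1807 ± 536 CPM (n = 4, from 1164 to 2336), activated cells 455 ± 341 CPM (n = 6), sublining cells 32.7 ± 40.9 CPM (n = 9) and FLS-like cells 1.57 ± 1.64 CPM (n = 8). These means rest on unlike sets of libraries: the activated ones were all injured and the osteoblast-like ones all Tom+, while the sublining ones joined both states and lineages. Against sublining cells Mmp13 was higher in osteoblast-like cells by 6.56 ± 0.92 (adjusted p = 1.21e-06), in chondrocyte-like cells by 4.99 ± 1.15 (adjusted p = 0.000866) and in activated cells by 3.30 ± 0.72 (adjusted p = 0.00397), and lower in FLS-like cells by -4.33 ± 1.15 (adjusted p = 0.00259) and in universal fibroblast-like cells by -3.90 ± 1.12 (adjusted p = 0.0232). The osteoblast-like and activated calls held under every alternative run, 20 and 19 of them. The FLS-like call was lost in the steady-state libraries alone (-2.61, adjusted p = 0.808), in which sublining cells also had few Mmp13 UMIs. The universal call was lost without Tom+ injured replicate 1 (adjusted p = 0.0514) and in either state alone.

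In chondrocyte-like cells the Mmp13 level split by lineage. The 2 Tom-GFP+ libraries with at least 10 such cells had 2345 CPM in the steady state and 3097 CPM after injury, while the 3 Tom+ libraries had 6.19, 0 and 9.95 CPM. Without Tom-GFP+ injured replicate 1 the class difference was 2.45 (adjusted p = 0.172). These sums hold 11 to 17 cells each, and the lineages were not tested against each other in this class. The chondrocyte-like gate also held 4314 CPM of Ibsp, an osteoblast marker. In the paper's own steady-state clusters, Tom+ chondrocyte-lineage cells had a superficial zone phenotype. The Tom- ones were described as mature or hypertrophic and as likely coming from growth plate. Lineage and kind of chondrocyte therefore cannot be told apart in these levels.

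By source, with both lineages pooled, osteoblast-like cells were 6.10% of stromal cells in the steady state and held 44.2% of the stromal Mmp13 UMIs. Activated cells were 1.10% and held 24.5%, most of it in 4 cells of the single steady-state Tom-GFP+ library. Adding activated to sublining cells (universal included) took the Mmp13 UMIs of that library from 3 to 356. In the steady-state Tom+ libraries the same step took them from 16 to 62. After injury activated cells were 14.4% of stromal cells and held 48.1%, sublining cells held 12.7% against 0.921% before, and the osteoblast-like share was 15.9%. FLS-like cells made up 18.4% of injured stromal cells and held 0.259% of the Mmp13 UMIs. The 5% of stromal cells with the most Mmp13 held 99.8% of its UMIs in the steady state and 96.1% after injury. The plot of UMI sources shows the shares for Mmp13 beside those of 4 other members.

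**Figure D2:**
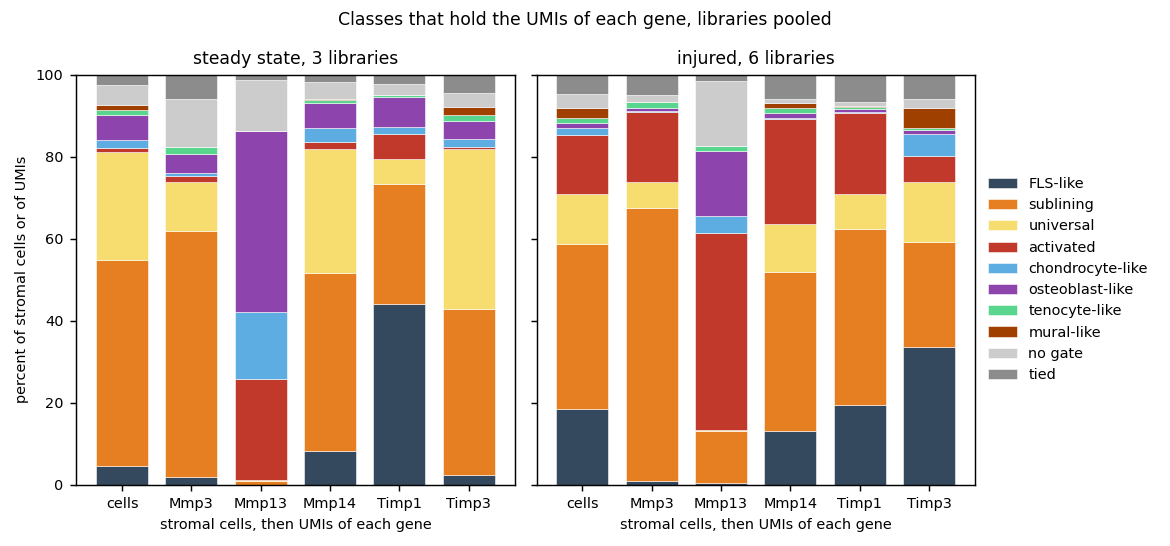
Stacked bars of the percentage of stromal cells in each marker-gated class (first bar) and of the UMIs of Mmp3, Mmp13, Mmp14, Timp1 and Timp3 held by each class, with 3 steady-state libraries pooled on the left and 6 injured libraries on the right. Osteoblast-like cells hold 44.2% of Mmp13 UMIs in the steady state and activated cells 48.1% after injury, and FLS-like cells hold 2.39% and then 33.5% of the Timp3 UMIs.

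In the other classes the members departed from sublining cells in different ways. In chondrocyte-like cells 9 of the 9 members tested differed, where 27.2% of all genes did: Mmp13 and Timp3 (1.72 ± 0.50, adjusted p = 0.00803) were higher, and Mmp2, Mmp3, Mmp14, Mmp19, Mmp23, Timp1 and Timp2 were lower, from -1.06 for Mmp14 to -5.04 for Mmp19. The Timp3 call rested on Tom+ injured replicate 4, the library with the highest level (1080 CPM among 70.5 to 1080), without which it was 0.61 (adjusted p = 0.44), and in the steady-state libraries alone it was -0.31. Its levels were 601, 368 and 1080 CPM in Tom+ and 70.5 and 127 CPM in Tom-GFP+ libraries. Mmp14 levels lay the other way, at 62.8 to 74.3 CPM in Tom+ and 370 and 185 CPM in Tom-GFP+ libraries. The class difference pools these lineages, and with them the kinds of chondrocyte that the paper describes. The lineages were not tested against each other here. Chondrocyte-like Mmp14 was no longer called without Tom+ injured replicate 3 or 4 (adjusted p = 0.0896 and 0.165), nor was Timp1 without either of these or either Tom-GFP+ injured library (0.0567 to 0.17). In mural-like cells, the contractile cells of vessel walls, 7 of 9 differed, where 22.4% of genes did, with Timp3 higher (1.48 ± 0.52, adjusted p = 0.0334) and Mmp2, Mmp3, Mmp14, Mmp19, Timp1 and Timp2 lower. Mural-like Timp3 was 1063 CPM in the steady-state library with 10 cells and 277, 218 and 705 CPM in 3 injured Tom+ libraries, and its call was lost under 9 of 20 alternatives, among them without any 1 of the 4 injured Tom+ libraries (adjusted p = 0.0515 to 0.153). Mural-like Mmp14 was not called without Tom+ injured replicate 2 or 4 (adjusted p = 0.0671 and 0.0881). No Mmp13 UMI was found in the 95 mural-like cells.

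In universal fibroblast-like cells 3 of 9 members differed, where 7.04% of genes did: Mmp3 (-1.91 ± 0.46, adjusted p = 0.00524) and Mmp13 were lower and Mmp23 was higher (0.43 ± 0.12, adjusted p = 0.0137). The call for Mmp23 was lost without Tom+ steady replicate 2 or Tom+ injured replicate 3 (adjusted p = 0.0683 and 0.0676). It was also lost in the steady-state (0.107) and the injured libraries alone (0.118), and without a filter on low counts (0.0577). The call for Mmp3 was lost with DESeq2 in place of edgeR (-1.79, adjusted p = 0.059). In activated cells 2 of 9 differed, both higher, where 3.47% of genes did: Mmp13 and Mmp14 (0.77 ± 0.23, adjusted p = 0.0468). Mmp14 in activated cells was at 672 ± 268 CPM (n = 6, from 426 to 1048), and its call was lost under 10 of 19 alternatives, including those without either Tom+ steady library, Tom+ injured replicate 2, 3 or 4, or either Tom-GFP+ injured library (adjusted p from 0.0524 to 0.147). In osteoblast-like cells Mmp13 was the 1 member of 9 called, where 12.8% of genes were. In tenocyte-like cells, from 3 libraries, edgeR called 0 of 9, where 0.535% of genes were called. At an unadjusted p under 0.05 there was 1 member, beside 1137 of 10646 genes. DESeq2 called 0 members. The median log2 difference of all genes was -0.20 in chondrocyte-like, -0.17 in tenocyte-like, -0.12 in mural-like and -0.10 in osteoblast-like cells, which is small beside the differences called.

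Mmp9, the gelatinase of neutrophils, macrophages and osteoclasts, gave few UMIs in stromal cells. None of 684 FLS-like cells had an Mmp9 UMI, which allows a share of up to 0.439% of cells with such a UMI at this depth and does not limit the share expressing the gene. Sublining cells including universal ones had 1 Mmp9 UMI in the steady-state Tom+ libraries and 22 in the injured ones. Immune cells held 14.2, 48.7 and 240 CPM in the 3 libraries with at least 10 of them.

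The central question was which of these genes differed between steady-state and injured knees. In Tom+ sublining cells, universal ones included, 6 of the 9 members tested passed the test, 5 higher and 1 lower after injury, where 10.7% of all genes tested were called. The higher ones were the proteases Mmp13, Mmp14, Mmp19 and Mmp23 and the inhibitor Timp1, and the lower one was Timp3. Mmp2, Mmp3 and Timp2 did not pass. The median log2 change of the 9 members was 1.29, beside -0.00 over all genes tested. In summed counts such as these, fewer cells of a kind within the class and less RNA per cell cannot be told apart: universal cells went from 22.9% and 20.1% of stromal cells in the 2 steady-state Tom+ libraries to 6.72% to 14.5% after injury.

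Timp1 stood at 204 and 210 CPM in the 2 steady-state Tom+ libraries and at 4540, 1409, 1622 and 838 CPM in the 4 injured ones. The groups did not overlap, and the lowest injured library was well above both steady-state ones. The log2 change was 3.31 ± 0.65 (adjusted p = 0.0213). At 4000 UMIs a cell, 40.4% of steady-state and 83.3% of injured Tom+ sublining cells had a Timp1 UMI (55.9% and 93.5% without thinning), beside 8.6% of immune cells.

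Timp3 moved the other way. It stood at 398 and 570 CPM in the steady-state libraries and at 86.9, 90.6, 81.6 and 55.3 CPM in the injured ones, again without overlap. The log2 change was -2.64 ± 0.22 (adjusted p = 0.00132). The share of cells with a Timp3 UMI at 4000 UMIs was 64.1% in the steady state and 13.6% after injury, beside 0.0% of 81 immune cells. The lower level was found in both parts of the class: from 404 ± 76.5 to 66.0 ± 18.2 CPM in sublining cells without the universal ones, and from 646 ± 206 to 124 ± 52.4 CPM in universal fibroblast-like cells. Of all UMIs of the 3 inhibitors, Timp3 held 23.3 ± 8.0% in the steady state and 2.55 ± 0.81% after injury. Timp2 stood at 1651 and 1186 CPM before and 730, 1050, 1270 and 1532 CPM after injury, overlapping groups with a change of -0.32 ± 0.32 (adjusted p = 0.544).

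Mmp14 stood at 130 and 137 CPM in the steady state and at 309, 406, 324 and 507 CPM after injury, a log2 change of 1.52 ± 0.27 (adjusted p = 0.0161). Mmp19 stood at 22.9 and 20.8 CPM and then at 58.4, 61.5, 55.3 and 54.5 CPM, with a change of 1.38 ± 0.16 (adjusted p = 0.00395). Mmp23 stood at 76.4 and 62.7 CPM and then at 154, 185, 177 and 171 CPM, a change of 1.29 ± 0.23 (adjusted p = 0.0166). In none of these 3 did the groups overlap. Cells with a UMI of each of Mmp2, Mmp14 and Timp2, the 3 parts of the known activation complex, were 25.8% and 33.9% of steady-state and 47.6% to 70.2% of injured Tom+ sublining cells at 4000 UMIs, close to the products of the single shares (27.5% and 33.5%, then 44.9% to 65.5%).

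Mmp13 rested on few molecules. Its UMIs numbered 12 and 4 in the steady-state libraries and 221, 474, 93 and 160 in the injured ones, or 5.49 and 1.30 CPM against 27.2, 106, 29.4 and 42.1 CPM. The log2 change was 3.99 ± 0.98 (adjusted p = 0.0376). Mmp13 UMIs were found in 1.1% of steady-state and 4.5% of injured Tom+ sublining cells at 4000 UMIs (1.3% and 7.0% without thinning). In immune cells the share was 2.5% (2 of 81 cells). As 3 of these 81 cells were from steady-state libraries, their share sets no background for the steady state.

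Mmp2 and Mmp3, both lower in FLS-like than in sublining cells above, showed no change that passed the test. Mmp2 stood at 725 and 984 CPM and then at 637, 1287, 1240 and 1352 CPM (0.39 ± 0.36, adjusted p = 0.501). Mmp3 stood at 195 and 297 CPM and then at 159, 429, 1171 and 397 CPM (1.12 ± 0.68, adjusted p = 0.303). In both, Tom+ injured replicate 1 was the lowest of the injured libraries and lay below both steady-state ones.

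The calls in Tom+ sublining cells depend on having both steady-state libraries: 2 members (Mmp19 and Timp3) were called without replicate 1 and 1 (Timp3) without replicate 2, at log2 changes for Mmp14, Mmp23 and Timp1 of 1.14 to 3.32. Within the older gene list layout, both steady-state libraries were set against Tom+ injured replicate 1. The same 6 members changed in the same directions, and the log2 change of Timp2 was -0.95. With a lone injured library the spread comes from the steady-state libraries alone, so calls of this fit are not given. The Mmp13 call was also lost without Tom+ injured replicate 2 or 3 (adjusted p = 0.0573 and 0.056). Under separate alternatives it was lost when activated cells were counted as sublining (0.071), with the layout as a block (3.05, adjusted p = 0.068) and with gates set on thinned cells (0.0645). Immediate early and heat shock genes, 10 genes read as a sign of stress during digestion, summed to 6343 to 6624 CPM in the steady-state and 2201 to 7603 CPM in the injured Tom+ sublining sums, and immune markers to 3.57 to 23.3 and 5.28 to 46.5 CPM, with Ptprc at 0 in both. The part of stress genes in these results was not tested.

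**Figure D3:**
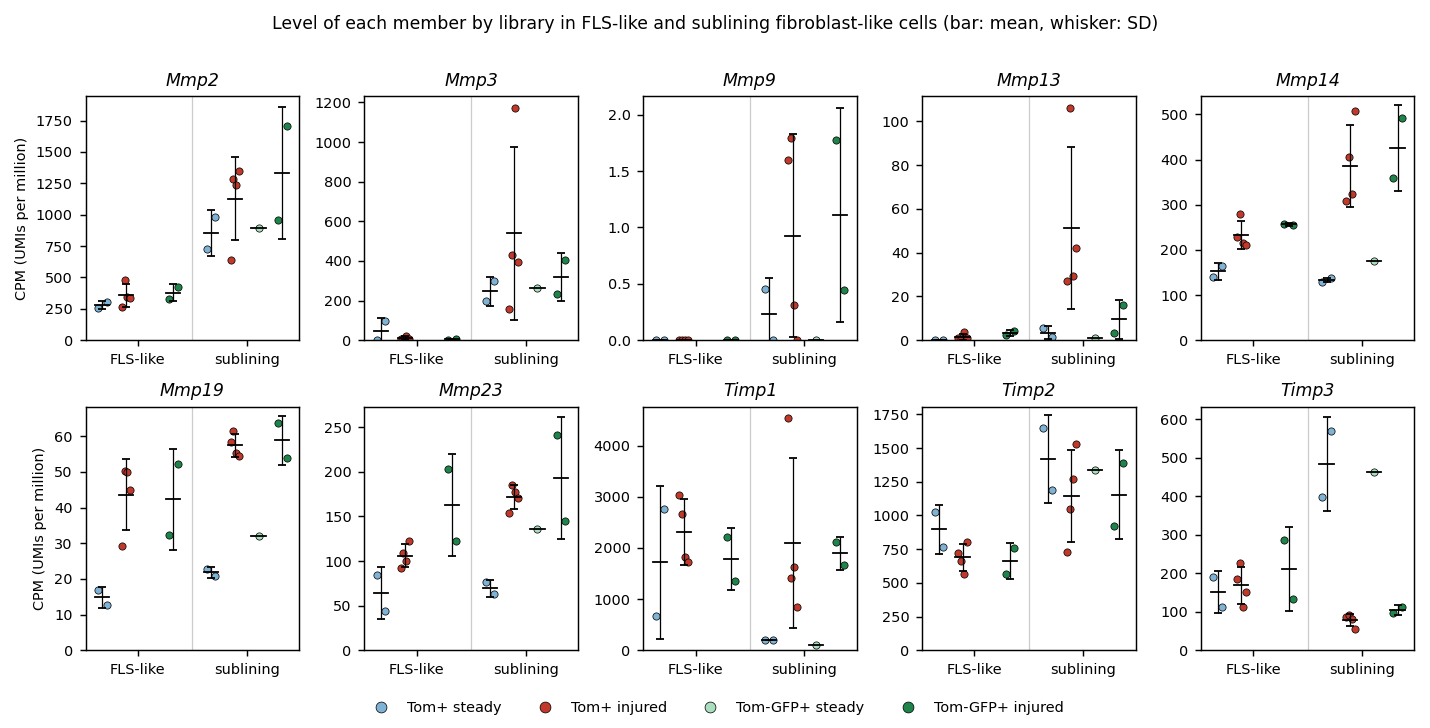
Level of each member (CPM, linear axis from 0) in FLS-like and in sublining cells (universal included), coloured by group; each point is a library, the horizontal bar is the group mean and the whisker the SD. In sublining cells Timp3 is at 398 and 570 CPM in the steady-state and at 55.3 to 90.6 CPM in the injured Tom+ libraries, while in FLS-like cells its groups overlap.

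In Tom+ FLS-like cells edgeR called 0 of the 8 members tested after injury, where 3.64% of all genes tested were called, and DESeq2 called 0. At an unadjusted p under 0.05 there were 4 of the 8 members, beside 1935 of the 9330 genes tested. Mmp9 and Mmp13 were not tested. Mmp19 (17.0 and 12.7 CPM, then 29.4, 50.2, 50.0 and 45.0 CPM) had a log2 change of 1.65 ± 0.42 (adjusted p = 0.0579), and Mmp14 (139 and 165 CPM, then 228, 279, 215 and 210 CPM) one of 0.64 ± 0.19 (adjusted p = 0.0851). In both of these the injured libraries were all above the steady-state ones. Mmp23 had a change of 0.83 ± 0.30 (adjusted p = 0.146). Without Tom+ injured replicate 1 Mmp19 was called (1.77, adjusted p = 0.0135). Without a filter on low counts 4 of the members were called, Mmp14 (0.71, adjusted p = 0.0222), Mmp19 (1.71, 0.000654) and Mmp23 (0.90, 0.0128) higher and Mmp3 (-2.22, 7.71e-09) lower. The share of all genes called under that setting is not given here, so these calls do not single out the members. For Mmp3 the SE fell from 0.83 with the filter to 0.34 without it. With the filter, its change was 7.12 when Tom+ steady replicate 2 was left out.

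The inhibitors in FLS-like cells showed wide steady-state spread. Timp1 stood at 662 and 2771 CPM in the 2 steady-state libraries and at 3034, 2666, 1826 and 1722 CPM after injury (0.44 ± 0.45, adjusted p = 0.643), so one steady-state library was at the injured level. Timp3 stood at 190 and 113 CPM and then at 185, 226, 114 and 151 CPM (0.23 ± 0.36, adjusted p = 0.777), and Timp2 at 1026 and 768 CPM and then at 725, 662, 564 and 804 CPM (-0.34, adjusted p = 0.366). Mmp2 stood at 255 and 303 CPM and then at 262, 482.5, 347 and 336 CPM (0.39, adjusted p = 0.434). Mmp3 had a change of -2.29 ± 0.83 (adjusted p = 0.149), but all of its 52 steady-state UMIs came from 1 library. Stress genes summed to 7224 to 8219 CPM in the steady-state and 3290 to 6697 CPM in the injured FLS-like sums, which do not overlap.

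Timp3 thus changed differently in the 2 classes. A fit that joined FLS-like and sublining sums of the Tom+ libraries, added after the values were seen, tested the difference between the 2 injury responses, and 1 of 9 members, Timp3, passed, where 0.875% of all genes tested were called. The injury change of Timp3 was higher in FLS-like than in sublining cells by 2.95 ± 0.35 (adjusted p = 0.00313). Without Tom+ steady replicate 2 the difference was 2.35 (adjusted p = 0.0733). For Timp1 it was -2.22 ± 0.56 (adjusted p = 0.108) and for Mmp3 -3.17 (adjusted p = 0.0617). The Tom-GFP+ injured libraries, with 22 and 35 FLS-like cells, had 288 and 133 CPM of Timp3 in FLS-like and 96.1 and 114 CPM in sublining cells, but no steady-state counterpart for FLS-like cells. FLS-like cells held 4.88% and 2.61% of stromal Timp3 UMIs in the 2 steady-state Tom+ libraries and 22.2% to 51.4% in the 4 injured ones, in which they were 5.81% and 7.18%, then 13.7% to 34.1% of stromal cells.

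**Figure D4:**
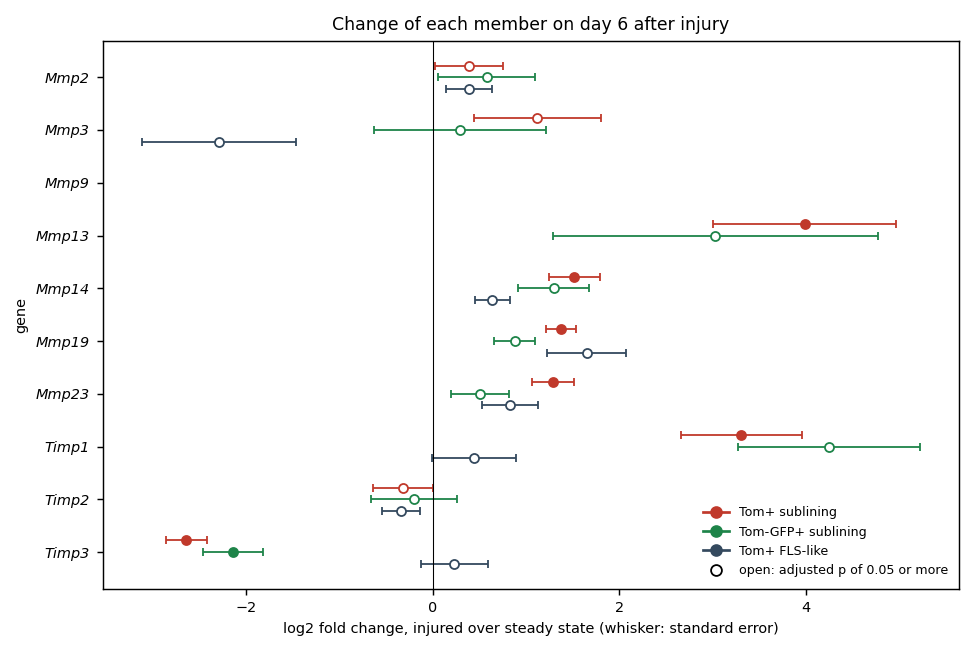
Log2 change of each member after injury (horizontal axis) in Tom+ sublining, Tom-GFP+ sublining and Tom+ FLS-like cells; points are edgeR estimates, whiskers are SEs, and filled points passed the test. Timp3 is filled in both sublining sets, at -2.64 and -2.14, and sits at 0.23 in FLS-like cells.

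Over all Tom+ stromal cells, where class make-up also moves, 5 of 10 members tested were called, where 13.2% of genes were. Mmp14 (1.53), Mmp19 (1.49), Mmp23 (1.32) and Timp1 (2.48) were higher after injury and Timp3 lower (-1.95). Mmp13 (0.51 ± 0.73, adjusted p = 0.673), which rose within sublining cells, was not called over all stromal cells. Osteoblast-like cells held 74.2% of the Mmp13 UMIs of Tom+ stromal cells in the steady state and 17.6% after injury, and were 8.28% and 1.48% of these cells. Without Tom+ steady replicate 1 or 2, the calls of Mmp14, Mmp23 and Timp1 were lost (adjusted p from 0.0821 to 0.171), and that of Timp1 also without Tom+ injured replicate 3 (0.0572).

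In Tom-GFP+ sublining cells 1 of 9 members was called after injury, where 0.465% of genes were. Timp3 stood at 464 CPM in the 1 steady-state library and at 96.1 and 114 CPM in the 2 injured ones (-2.14 ± 0.32, adjusted p = 0.0396), the spread being taken from all groups. Leaving out any of 6 libraries, both Tom+ steady and both Tom-GFP+ injured replicates among them, and Tom+ injured replicates 2 and 3, lifted its adjusted p to between 0.0575 and 0.229. Timp1 stood at 99.5 CPM and then at 2119 and 1668 CPM (4.25 ± 0.98, adjusted p = 0.0926), Mmp14 at 174 CPM and then at 359 and 492.7 CPM (1.30, adjusted p = 0.133), and Mmp13 at 3 UMIs and then at 14 and 36 UMIs (3.03 ± 1.74, adjusted p = 0.386). Mmp19 stood at 32.0 CPM and then at 63.6 and 54.0 CPM (0.88, adjusted p = 0.107), and Mmp23 at 136 CPM and then at 241.5 and 145 CPM (0.51, adjusted p = 0.421). In these 6 genes both injured libraries lay on the same side of the steady-state one. The same held for Mmp2, which was not called (897 CPM, then 961 and 1708 CPM). For Mmp3 and Timp2, also not called, the groups overlapped.

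Whether lineage altered the response was tested in sublining cells with an interaction term. edgeR called 0 of 9 members and 0 of 12697 genes (0% called), with 0 members and 230 genes at an unadjusted p under 0.05, and DESeq2 called 0 members and 9 genes. Between Tom+ and Tom-GFP+ sublining cells of injured knees edgeR called 0 of 9 members, where 0.00788% of genes (1 gene) were called, with 1 members and 595 genes at an unadjusted p under 0.05, and DESeq2 called 0 members and 33 genes. These tests treat libraries of matched mice as independent. With the replicate number as a block within the injured libraries, an alternative added after seeing the data, edgeR again called 0 of 9 members and 0 genes, with 1503 genes at an unadjusted p under 0.05, and Mmp13 had the lowest adjusted p of the 9 (2.89 ± 0.22, Tom+ against Tom-GFP+, adjusted p = 0.0908). Tom+ injured replicates 3 and 4 have no same-numbered Tom-GFP+ library and add nothing to this blocked contrast. Its misses therefore carry little weight. The injury-by-lineage term could not be paired, since the label of the steady-state Tom-GFP+ library gives no number. A miss in these tests does not show that the lineages act alike. The interaction test has 1 steady-state Tom-GFP+ library, and the tests after injury have 2 Tom-GFP+ libraries.

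Other genes of the same pathway were read from a list of 34: further MMPs, further inhibitors, activators and their inhibitors, receptors and cathepsins. In Tom+ sublining cells 22 were tested after injury, and 3 were higher and 2 lower, where 10.7% of all genes were called. Reck, a membrane-anchored MMP inhibitor, was lower (-2.32 ± 0.20, adjusted p = 0.00132), as was the proprotein convertase Pcsk6 (-1.24 ± 0.33, adjusted p = 0.0476). Tfpi2, a secreted inhibitor of serine proteases (1.59 ± 0.20, adjusted p = 0.00469), and the hyaluronan receptor Cd44 (1.74 ± 0.33, adjusted p = 0.0192) were among the higher ones. The inhibitors Timp3 and Reck were lower in the sums in which Timp1 was higher.

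In Tom+ FLS-like cells 19 of the list were tested and 4 called, where 3.64% of all genes were. Reck (-2.56 ± 0.51, adjusted p = 0.0263), Serpine2 (-2.31 ± 0.40, adjusted p = 0.0199) and Pcsk6 (-0.85 ± 0.20, adjusted p = 0.0441) were lower after injury and Ctsk, the collagen-degrading cathepsin K, was higher (1.25 ± 0.29, adjusted p = 0.0419). In Tom-GFP+ sublining cells Reck was lower (-1.76, adjusted p = 0.043) and Tfpi2 higher (1.66, adjusted p = 0.0452). The fit on both classes found a lower injury change in FLS-like than in sublining cells for Cd44 (-1.20 ± 0.23, adjusted p = 0.0417).

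Between FLS-like and sublining cells 22 of the list were tested, and 4 were higher and 7 lower in FLS-like cells, where 36.8% of all genes were called. Pcsk6 was higher by 3.96 ± 0.22 and Mmp28 (epilysin) by 1.58. Plau and Plat, both plasminogen activators, were lower by -3.41 and -2.53, Mmp11 by -3.89 and Reck by -1.72 on the log2 scale.

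Genes with the profile most like that of each member were read from 24 class-by-group mean profiles over 8192 genes, as a description without a test. The profiles share libraries and depth. Mmp2 and Timp2 were near each other (Pearson r = 0.903), with Scpep1 (0.915) nearest to Mmp2 and Rnase4 (0.908) to Timp2. Nearest to Mmp3 were Abi3bp (0.883), Flrt2 (0.883) and Spon2 (0.87), to Mmp13 Kcnk2 (0.918), Podnl1 (0.905) and Maged1 (0.822), and to Mmp14 Col5a2 (0.886). Col3a1 (0.913) was nearest to Mmp19, Eif4ebp1 (0.895) to Mmp23, Akt1s1 (0.929) to Timp1, and Mfap1a (0.862) and Klf9 (0.803) to Timp3.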

How the data were processed

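Mouse synovial cells of 9 libraries were read as deposited UMI counts per gene and cell barcode. Per the labels, the authors made these with Cell Ranger (file headers of the newer layout name version 3.0.2) on GRCm38.p6; strand and intron settings are not given in the sources used here. The counts were not normalised, and no cell type annotation was used.

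A cell was kept if it had 500 or more genes and 1000 or more UMIs, with no more than 10% of them mitochondrial. Each was given the class whose marker list had the highest share detected, with at least 3 markers. Of the cells, 197 tied between classes and 177 passed no gate; both entered the stromal sums only. No doublet caller was run.

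Counts were summed per library and class (at least 10 cells) and tested in R 4.3.3 with edgeR 4.0.16 (TMM, filterByExpr, quasi-likelihood F test) at a false discovery rate of 0.05. Injury and lineage contrasts came from 1 fit per class with up to 4 groups, and class contrasts from a fit with library as a block. The FLS-like fit had no steady-state Tom-GFP+ group. DESeq2 1.42.0, other filters, other gates, single left-out libraries and blocks for replicate number or gene list layout were alternatives. Shares and figures were made in Python 3.11.15 with pandas 2.3.3, NumPy 2.4.6, SciPy 1.17.1 and matplotlib 3.10.9. Cells are not replicates, and intervals and floors cover counting error only (95% exact binomial; 3 counts for a share of 0). The fits were tested on simulated data. Positions and overlaps are from GENCODE vM21.

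The members called in the main fit of each comparison are named, and other members it tested may be left out. Of the pathway list at most 6 genes with the lowest adjusted p are named, and for each member up to 3 genes of nearest profile. The values of 1 gene of the pathway list are not reported here. The members, markers and lists were chosen with earlier results of these data known.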

Additional observations from a re-analysis of the deposited data

Results flagged for a closer look

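Among 29 groups of 4 Tom+ injured libraries examined for a library far from the others, 1 was found: Mmp2 in sublining cells (universal included) of Tom+ injured replicate 1 stood at 637 CPM, while the other 3 libraries stood at 1240 to 1352 CPM. Chance alone gives about 1 such group in 20. That library is also the injured one with the older gene list layout, and the part of the layout in this value was not tested.

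The change of Timp3 after injury differed between classes of Tom+ cells, by 2.95 on the log2 scale (FLS-like minus sublining, edgeR quasi-likelihood test, adjusted p = 0.00313). The comparison was added after the values had been seen.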

How the results depend on the processing

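The number of members called under each alternative was within 1.5 times the number given above in 224 cases and outside it in 45. The shares of all genes called under these alternatives are not given here, so the counts below do not single out the members. Leaving out 1 library at a time gave 1 to 6 called members for Tom+ sublining injury, 2 to 5 for Tom+ stromal injury, 0 to 1 for Tom+ FLS-like injury, 0 to 3 for Tom-GFP+ sublining injury, 0 to 3 for the difference between classes in the injury response, and 1 to 2 for activated cells. DESeq2 in place of edgeR called 1 member in activated cells, 2 in the class difference and 3 in Tom-GFP+ sublining injury. Without a filter on low counts there were 4 in activated cells, 3 in the class difference, 4 in Tom-GFP+ sublining injury, 4 in FLS-like injury, 1 between lineages after injury, 2 in osteoblast-like, 2 in tenocyte-like and 6 in universal cells. Gate changes gave 1 in activated cells with 1 fewer marker and 1 with the universal gate at 3 markers, 2 in osteoblast-like cells with 1 more marker, and 1 in tenocyte-like and 7 in universal cells with gates on thinned cells. Asking for 20 cells a sum gave 3 in the class difference and 5 in universal cells. Steady-state libraries alone gave 4 in FLS-like and 2 in mural-like cells, and injured libraries alone 1 in universal cells. The gene list layout as a block gave 2 in Tom-GFP+ sublining injury. Calls in the older layout alone are not given, since a lone injured library enters.

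The sign of 3 members that passed the test turned, each in steady-state libraries alone: chondrocyte-like Mmp14 (0.30) and Timp3 (-0.31), and FLS-like Mmp14 (0.09). The other turned signs were of members that had not been called. Against sublining cells, FLS-like Timp1 was -0.07 in injured and Timp3 -1.82 in steady-state libraries alone. With the layout as a block, the injury change of Mmp2 was -0.48 in Tom+ sublining, -0.10 in stromal, -0.08 in FLS-like and -0.49 in Tom-GFP+ sublining cells, and that of Mmp3 was -0.68 in Tom+ sublining, -0.76 in stromal and -1.82 in Tom-GFP+ sublining cells. In the older layout alone, Mmp2 was -0.41 in sublining, -0.12 in stromal and -0.08 in FLS-like cells, and Mmp3 was -0.62 in sublining and -0.78 in stromal cells. The FLS-like injury change was -0.20 for Timp1 with at least 20 cells a sum and -0.43 for Timp3 with 1 fewer marker. Tom-GFP+ Mmp13 was -0.08 with activated cells counted as sublining, and Mmp13 in the class difference was -2.36 by DESeq2. Over single left-out libraries, values ran from -3.06 to 7.12 for Mmp3, from -0.20 to 1.90 for Timp1 and from -0.07 to 0.65 for Timp3 in FLS-like injury; from -0.07 to 0.80 for Mmp13, from -0.21 to 0.51 for Mmp3 and from -0.64 to 0.01 for Timp2 in stromal injury; from -0.18 to 0.64 for Mmp3 and from -0.55 to 0.08 for Timp2 in Tom-GFP+ sublining injury; and from -0.29 to 2.19 for Mmp13, from -3.94 to 6.55 for Mmp3 and from -0.12 to 0.24 for Timp2 in the class difference. The cause of these changes was not tested.

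Replicate numbers are shared between groups. The study describes the Tom-GFP+ mice as matched to Tom+ ones, but neither it nor the labels tie a number to a mouse. Deviations of same-numbered libraries correlated at r = 0.34, 0.15 and 0.30 between Tom+ and Tom-GFP+ injured libraries (stromal, FLS-like, sublining) and at -0.11 to -0.00 in the other pairs of groups. With the replicate block 6 members were called in Tom+ sublining injury, 5 in stromal, 0 in FLS-like and 0 between lineages, and the stromal change of Mmp3 was -0.35. These fits left out the steady-state Tom-GFP+ library and Tom+ injured replicates 3 and 4. They are therefore not the main comparisons with only a block added, and their shares of all genes called are not given here. A replicate block within the injured libraries alone called 0 members between lineages, with Tom+ injured replicates 3 and 4 adding nothing to the contrast. The block could not be fitted for Tom-GFP+ injury or for the injury-by-lineage term. Depth limits Mmp9, Mmp13 and Mmp3 most, since few cells had their UMIs.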
